A study of Mus musculus with 10 samples.

Results

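Immediate early genes are switched on within minutes of a growth factor, cytokine, stretch or stress signal, without new protein synthesis, by transcription factors that already sit in the cell. Many of their products are themselves transcription factors (the AP-1 and EGR families and several Krüppel-like factors, KLFs), while others damp the signal that induced them, such as the SOCS inhibitors of cytokine receptors, the DUSP phosphatases of MAP kinases and the ZFP36 proteins that mark mRNAs for decay. In the intestinal epithelium KLF5 is known for supporting proliferation in crypts, and KLF4 for restraining it in the differentiated cells of the villus. The genes described here are 40 listed members of these groups, found on the array by symbol; the list itself was drawn up with earlier results of these data known. Of the 40 members, 36 had a probe under their symbol among the 18138 symbols of the array, and 31 were bright enough to be tested, of 9365 tested genes in all.

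The 10 arrays measured total RNA of the ileum, the last segment of the small intestine, from mice of strain FVB/N aged 3 to 4 months. A group of 5 arrays came from iPGC-1β mice and 5 came from wild-type mice, which the series calls littermates. PGC-1β, encoded by Ppargc1b, is a transcriptional coactivator that promotes mitochondrial gene expression. The labels give no more than the name iPGC-1β, so the construct, the promoter that drives it, and the sex, litter and slide of each mouse are unknown here. Values are log2 intensities after background correction and quantile normalization, each group is given as mean ± SD over 5 arrays, and a change is iPGC-1β minus wild-type on the log2 scale. A gene was called higher or lower where its adjusted p was under 0.05 (limma, with Benjamini-Hochberg adjustment over all 9365 genes). Each array detected 12370 to 12771 of 25697 probes, and array profiles correlated at 0.959 to 0.987 within a genotype and at 0.923 to 0.969 across genotypes. The single Ppargc1b probe averaged 7.70 ± 0.41 on iPGC-1β arrays and 8.32 ± 0.22 on wild-type arrays, a change of -0.61 (adjusted p = 0.0452), called in 3 of the 10 fits that left out an array. Where that probe lies in the transcript is not known here, so it does not check the label.

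Upstream sequences are shown for 3 of the members that fell, from the EGR, SOCS and KLF groups. Regulation at the promoter defines this class of gene. The windows shown all hold a motif match, which those of some other called members do not. They are the 250 bases before a transcription start, from RefSeq on build GRCm38.p6, printed 5′ to 3′ on the strand of the gene. Egr2 has 5 windows, and the window shown lies at chr10:67537619-67537868 on the plus strand. Its capitals mark a CArG box, the sequence bound by serum response factor, at 72 to 63 bases before the start. The Egr2 window at chr10:67535249-67535498 holds no match, and that at chr10:67537316-67537565 holds a different CArG box. Socs3 lies at chr11:117969367-117969616 on the minus strand, where the capitals mark a TTCNNNGAA match, the motif of STAT factors, at 154 to 146 bases before the start, and a GCGNGGGCG match, the EGR motif, at 181 to 173 bases. Klf4 lies at chr4:55532476-55532725 on the minus strand, and its capitals mark EGR motif matches at 211 to 203 and at 194 to 186 bases.
Egr2: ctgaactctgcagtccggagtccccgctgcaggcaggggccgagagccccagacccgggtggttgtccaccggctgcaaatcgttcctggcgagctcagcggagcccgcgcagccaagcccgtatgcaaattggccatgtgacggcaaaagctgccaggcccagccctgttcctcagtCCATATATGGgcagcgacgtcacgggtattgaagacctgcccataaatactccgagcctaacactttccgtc
Socs3: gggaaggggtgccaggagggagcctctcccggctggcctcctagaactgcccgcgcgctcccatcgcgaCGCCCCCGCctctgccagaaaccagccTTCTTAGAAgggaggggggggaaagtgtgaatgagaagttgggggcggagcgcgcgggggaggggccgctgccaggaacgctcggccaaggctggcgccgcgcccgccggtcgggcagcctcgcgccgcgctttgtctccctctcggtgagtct
Klf4: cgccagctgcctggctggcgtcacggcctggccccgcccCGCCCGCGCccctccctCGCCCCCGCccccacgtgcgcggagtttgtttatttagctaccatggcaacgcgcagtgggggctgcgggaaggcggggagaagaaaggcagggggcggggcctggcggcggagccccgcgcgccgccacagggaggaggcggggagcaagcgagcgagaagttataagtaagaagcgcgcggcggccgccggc

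Both strands of such windows were searched for 5 motifs, with 38 windows of 32 members against 32851 windows of 27025 genes. The CArG box stood in 5 of the 38 member windows (13.2%), against 1.47% of all windows. These windows belong to Egr2 and Zfp36, and 3 of them hold the same Egr2 site, so that by gene the shares were 2 of 32 members (6.25%) and 1.62% of all genes. The EGR motif stood in 12 member windows of 12 genes (31.6%), against 4.7% of all windows. Shares for TTCNNNGAA were 7.89% of member windows and 7.02% of all windows. For TGANTCA, a pattern wider than the AP-1 motif (TGAGTCA or TGACTCA), they were 5.26% and 6.75%. The member matches were TGAATCA in Klf9 and TGATTCA in Zfp36l1, and neither is the AP-1 motif itself. TGACGTCA, the site of CREB factors, stood in 7.89% of member windows (Btg2, Dusp1 and Maff), against 1.55% of all windows. Member windows were also richer in G and C, with a median of 64.2% against 52.4% of all windows, and the motif shares were not adjusted for it. Of the members called lower, 1 held a CArG box, 1 held TTCNNNGAA, 1 held TGANTCA, 2 held the EGR motif and 0 held TGACGTCA. The windows of Klf6 and Rhob, also called lower, held none of the 5 motifs, and Ctgf had no window. A match describes the letters and not a bound site.

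Of the 31 tested members, 7 fell in iPGC-1β ileum and 0 rose. The 7 were the receptor inhibitor Socs3, the Krüppel-like factors Klf6 and Klf4, the matricellular protein gene Ctgf, the small GTPase gene Rhob, the transcription factor gene Egr2 and the mRNA decay factor gene Zfp36l1. The 7 make up 22.6% of the tested members, while 7.41% of all tested genes were lower and 9.88% were higher. At an unadjusted p under 0.05, limma gave 11 of the 31 members lower and 0 higher, while 16% of all genes were lower and 15.2% were higher. The median change of the members was -0.32, against -0.05 over all genes, and 28 of 31 members (90.3%) had a negative change, against 55.8% of all genes. All iPGC-1β arrays lay below all wild-type arrays for 5 members (16.1%), namely Klf4, Klf6, Socs3, Rhob and Btg1, against 5.62% of all genes. The opposite arrangement held for 0 members, against 8.66% of all genes. No test of the list as a whole was made. Leaving out 1 array moved the count of 7 by over 1.5 times for most arrays. It was 3 without wild-type replicate 3 and without iPGC-1β replicate 1, 3 or 5. It was 4 without wild-type replicate 2 or 4 or iPGC-1β replicate 4, and 10 without wild-type replicate 5. Socs3, Klf6 and Klf4 were called in every such fit. The count of all genes lower, 694 of 9365 with all arrays, moved as well. Without wild-type replicate 3 it was 425 of 9211, against 3 of 30 members. Without wild-type replicate 5 it was 791 of 9207, against 10 of 30 members. In bulk tissue, fewer cells of a type and less RNA per cell cannot be told apart.

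**Figure D1:**
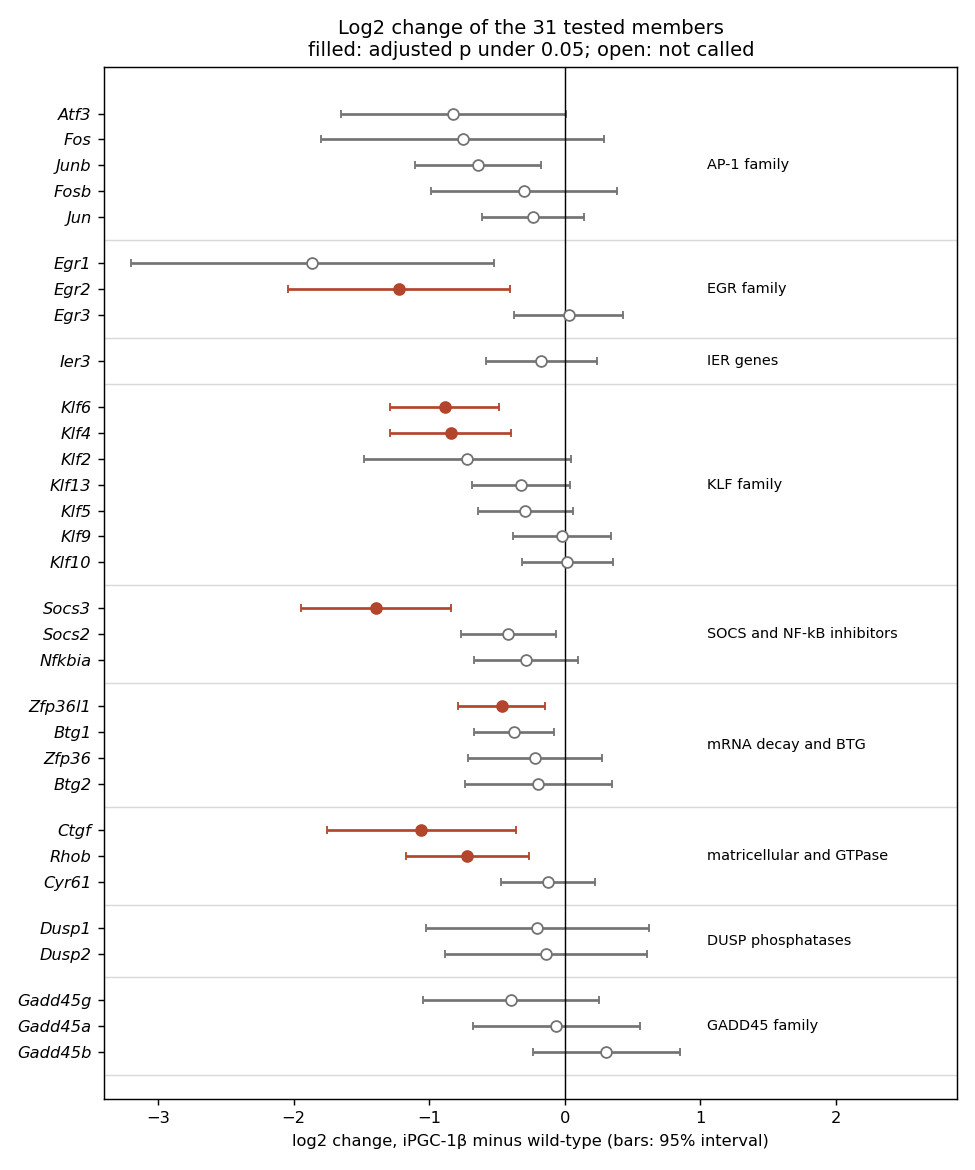
Log2 change (x axis, iPGC-1β minus wild-type) of the 31 tested members, grouped by role; points are limma estimates, bars are 95% intervals, and filled points passed an adjusted p under 0.05. The 7 filled points lie between -1.39 and -0.47, and the intervals are widest for Egr1 and Fos.

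Socs3 fell the most of the 7 called members. SOCS3 binds gp130-type cytokine receptors and shuts off JAK kinases, and its gene is itself a target of STAT3. Socs3 had log2 intensities of 7.56, 8.01, 7.52, 8.30 and 8.66 on iPGC-1β arrays, against 8.83, 9.59, 9.93, 9.05 and 9.61 on wild-type arrays. The groups did not overlap, although the highest iPGC-1β array was close to the lowest wild-type array. Means were 8.01 ± 0.49 in iPGC-1β and 9.40 ± 0.45 in wild-type, a change of -1.39 ± 0.26 (SE, adjusted p = 0.0025), or 0.381 of the wild-type level. Socs2, which restrains growth hormone receptor signalling, lay between 9.90 and 10.62 in iPGC-1β and between 10.32 and 10.80 in wild-type. Its change of -0.42 was not called (adjusted p = 0.0978), and only iPGC-1β replicate 2, at 10.62, lay inside the wild-type range. Nfkbia encodes IκBα, the inhibitor that holds NF-κB in the cytoplasm. It differed by -0.29 with overlapping groups (adjusted p = 0.301), at 9.08 to 9.82 in iPGC-1β and 9.39 to 10.02 in wild-type. Socs1 was too dim to test, being detected on 1 iPGC-1β array and 3 wild-type arrays.

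Of the other genes of cytokine signalling, 20 of 25 listed JAK-STAT genes were tested, 1 was lower (5%) and 2 were higher (10%), shares near or below those of all tested genes. The median change of the list was -0.34, however, against -0.05 over all genes. Stat3, the transcription factor downstream of gp130, was the lower gene, at 9.13 ± 0.25 in iPGC-1β and 10.00 ± 0.18 in wild-type (change -0.87, adjusted p = 0.00168), and its groups did not overlap. Cish, another SOCS-family inhibitor and a target of STAT5, was higher, at 9.39 ± 0.23 in iPGC-1β and 8.47 ± 0.45 in wild-type (change 0.92, adjusted p = 0.00845). Il11ra1, a receptor chain for interleukin 11, was also higher by 0.64 (adjusted p = 0.0227). Socs3 and Cish thus moved in opposite directions within 1 gene family. The Stat3 and Cish calls stood in all 10 fits that left out an array, while that of Il11ra1 was lost without wild-type replicate 2 or iPGC-1β replicate 3 (adjusted p of 0.0526 to 0.0602). Of 16 tested NF-κB genes, 1 was lower and 1 was higher (6.25% each, against 7.41% and 9.88% of all tested genes). Rela, the p65 subunit, was lower by 0.57 on the log2 scale (change -0.57, adjusted p = 0.0195). Ikbkg, the NEMO subunit of the kinase complex, was higher by 0.44 (adjusted p = 0.0386). Omitting wild-type replicate 3 ended the Rela call (adjusted p = 0.0503), and the Ikbkg call was lost in 7 of the 10 fits (up to 0.0959), namely without wild-type replicate 1, 3, 4 or 5 or iPGC-1β replicate 2, 3 or 4.

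Klf6 and Klf4 fell in iPGC-1β ileum, and the other tested KLF genes did not pass the test. Klf6 encodes a zinc-finger factor known as an early response gene to tissue injury. It had log2 intensities of 11.67, 11.33, 11.17, 11.35 and 11.05 on iPGC-1β arrays, against 12.32, 12.69, 12.34, 11.81 and 11.85 on wild-type arrays. Every wild-type array lay above every iPGC-1β array, and the change was -0.89 ± 0.19 (SE, adjusted p = 0.00582), or 0.541 of the wild-type level. Its other kept probe gave the same change of -0.89 in the fit of all probes. Klf4 had 9.21, 8.78, 9.29, 9.60 and 9.47 on iPGC-1β arrays, against 10.07, 10.68, 10.30, 9.91 and 9.61 on wild-type arrays. The groups met without overlapping, iPGC-1β replicate 4 lying just below wild-type replicate 5. Its change was -0.84 ± 0.21 (SE, adjusted p = 0.0141). All 3 Klf4 probes were lower in the fit of all probes, with changes of -0.84, -0.85 and -0.67 (adjusted p of 0.0149, 0.0350 and 0.0465).

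Klf13, known for regulating chemokine genes in T lymphocytes, lay between 8.57 and 8.79 on iPGC-1β arrays and between 8.37 and 9.36 on wild-type arrays. Wild-type replicate 5, at 8.37, was the lowest of all 10 arrays, and the 4 other wild-type arrays lay above all iPGC-1β arrays. The change of -0.32 was not called (adjusted p = 0.211), and it was called without wild-type replicate 5 (adjusted p = 0.0224). Klf2, a factor of quiescent endothelial cells and T cells, ranged from 5.39 to 6.95 in iPGC-1β and from 6.13 to 7.82 in wild-type, and its change of -0.72 was not called (adjusted p = 0.186). Mean levels of 6 endothelial markers were 6.13 to 6.45 on iPGC-1β arrays and 5.88 to 6.21 on wild-type arrays. Mean levels of 4 T cell markers were 5.75 to 8.26 on iPGC-1β arrays, lowest on replicate 3, and 7.83 to 8.91 on wild-type arrays. The part of either list in the Klf2 and Klf13 values was not tested. Klf5, the crypt factor, differed by -0.29 (adjusted p = 0.242), at 12.72 to 13.35 in iPGC-1β and 13.12 to 13.72 in wild-type. Klf9, a target of glucocorticoid and thyroid hormone receptors, and Klf10, a TGF-β-inducible repressor, had changes of -0.02 and 0.02 and overlapping groups. Their 95% intervals ran from -0.38 to 0.35 and from -0.32 to 0.36. Klf15, a regulator of amino acid and lipid metabolism, was detected on 1 array of each genotype and not tested, and Klf3 had no probe under its symbol. Of 15 other KLF and SP genes listed, 4 were tested and limma called 0 in either direction (1, Sp1, had an unadjusted p under 0.05). Sp1, a general activator at GC boxes, differed by -0.46 (adjusted p = 0.140), Klf7 by -0.16, Sp5 by 0.16 and Klf16 by -0.06 (adjusted p of 0.412 to 0.819).

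**Figure D2:**
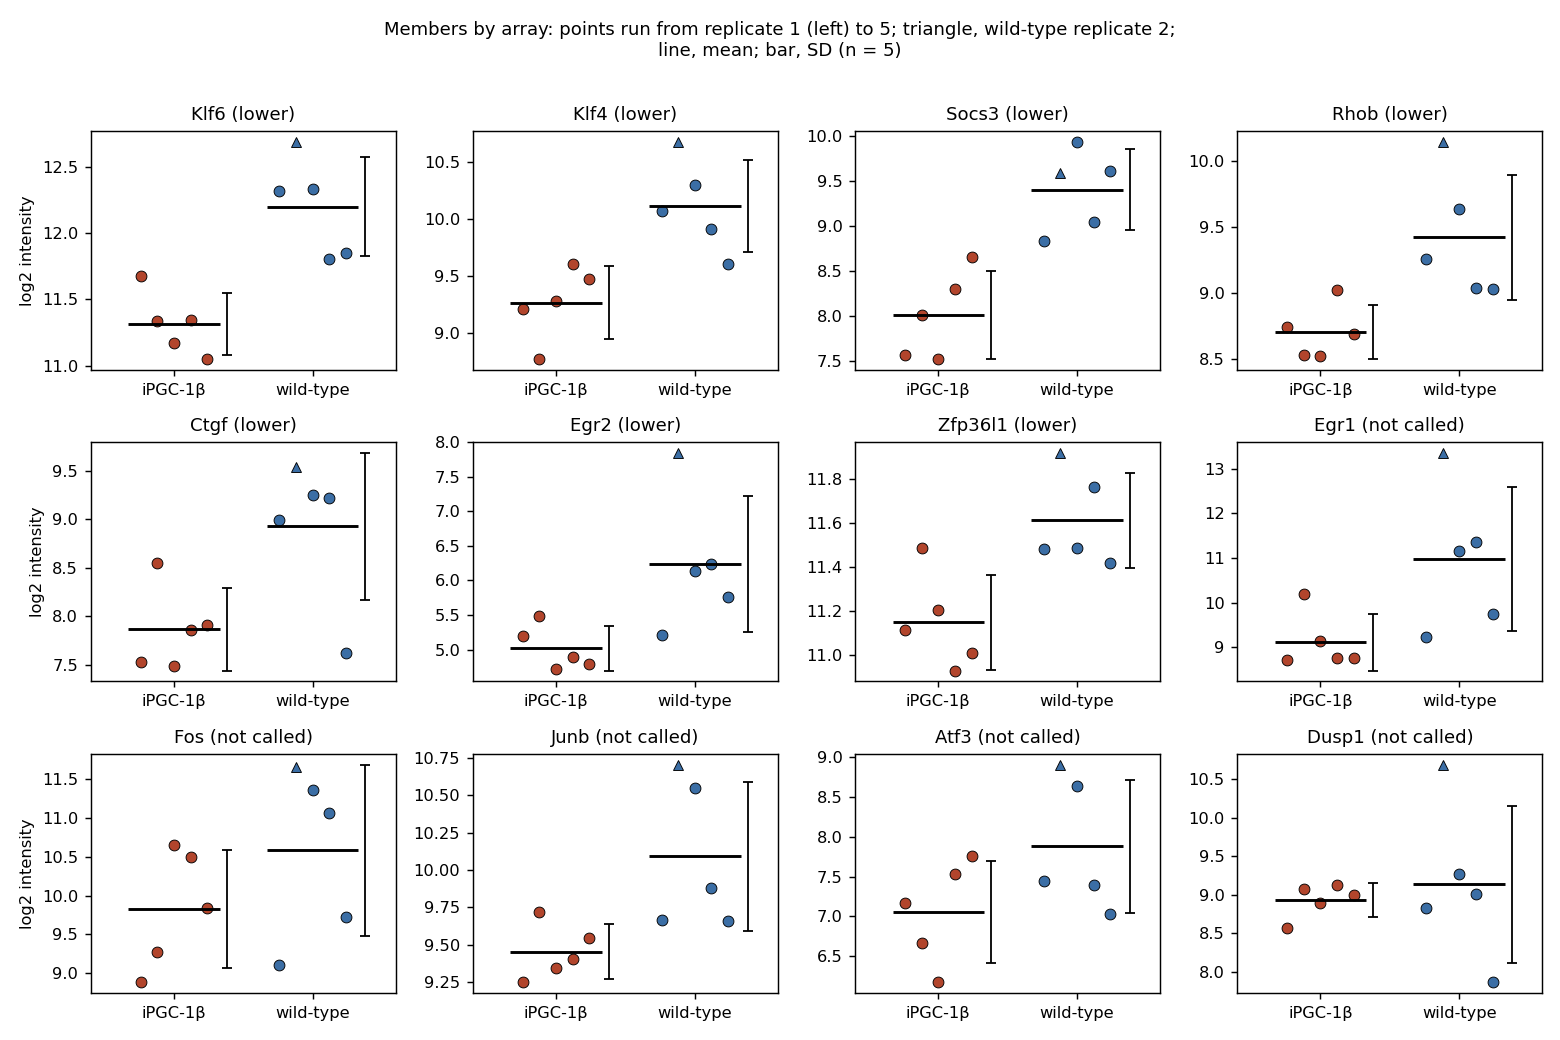
Log2 intensity (y axis, a separate scale in each panel) of the 7 members that fell and of Egr1, Fos, Junb, Atf3 and Dusp1 on each iPGC-1β and wild-type array; horizontal lines are means, bars are SDs of 5 arrays, and triangles mark wild-type replicate 2. Klf6, Klf4, Socs3 and Rhob show no overlap between genotypes, and wild-type replicate 2 is the highest array in every panel except that of Socs3.

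In the EGR family, zinc-finger factors of the early growth response, Egr2 was lower and Egr1 just missed the threshold. Egr2 had log2 intensities of 5.20, 5.49, 4.71, 4.90 and 4.79 on iPGC-1β arrays, against 5.21, 7.84, 6.14, 6.24 and 5.76 on wild-type arrays. Wild-type replicate 1 lay within the iPGC-1β range, and the probe was above background on 2 of 5 iPGC-1β arrays and on all 5 wild-type arrays. The change was -1.22 ± 0.38 (SE, adjusted p = 0.0427), and it was -0.47 without background correction, where the call was lost. Omitting wild-type replicate 3 or 4 or iPGC-1β replicate 1, 3, 4 or 5 also ended it (adjusted p of 0.0632 to 0.0857). Egr1, the best known member of the class and the one whose genotype means lay farthest apart among the members, had 8.70, 10.20, 9.13, 8.77 and 8.75 on iPGC-1β arrays, against 9.23, 13.35, 11.16, 11.37 and 9.75 on wild-type arrays. Of the iPGC-1β arrays, 4 lay below every wild-type array, and replicate 2 lay above wild-type replicates 1 and 5. Means were 9.11 ± 0.63 in iPGC-1β and 10.97 ± 1.61 in wild-type, and the change of -1.86 ± 0.62 (SE) was not called (adjusted p = 0.0558). Without wild-type replicate 1, wild-type replicate 5 or iPGC-1β replicate 2 it was called (adjusted p of 0.0201 to 0.0406), and without wild-type replicate 2 the change was -1.27 (adjusted p = 0.0862). Egr3 was dim, at 4.78 to 5.38 in iPGC-1β and 4.70 to 5.66 in wild-type, with a change of 0.03 (adjusted p = 0.935).

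All 5 tested AP-1 genes, whose products pair to bind the AP-1 motif, had negative changes, and limma called 0 of them (1, Junb, had an unadjusted p under 0.05). Fos ranged widely in both genotypes, at 8.89, 9.27, 10.65, 10.50 and 9.84 on iPGC-1β arrays, against 9.11, 11.65, 11.35, 11.06 and 9.73 on wild-type arrays. Wild-type replicates 2, 3 and 4 lay above all iPGC-1β arrays, while replicates 1 and 5 lay among them. The change was -0.75 with a 95% interval from -1.80 to 0.29 (adjusted p = 0.314). Junb, which as a JUN protein often restrains growth, had 9.25, 9.72, 9.34, 9.40 and 9.54 on iPGC-1β arrays, against 9.66, 10.71, 10.55, 9.88 and 9.66 on wild-type arrays. Only iPGC-1β replicate 2 reached the wild-type range. Its change of -0.64 ± 0.21 (SE) missed the threshold (adjusted p = 0.0575) and passed it without wild-type replicate 1 or 5 (adjusted p of 0.0299 to 0.0429). Atf3, a stress-induced repressor, had 7.17, 6.67, 6.18, 7.53 and 7.75 in iPGC-1β, against 7.44, 8.90, 8.63, 7.40 and 7.03 in wild-type. Wild-type replicates 2 and 3 stood above the rest, and the change of -0.82 was not called (adjusted p = 0.165). Jun lay between 6.84 and 7.76 in iPGC-1β and between 7.39 and 7.92 in wild-type (change -0.23, adjusted p = 0.398). Fosb was detected on 4 iPGC-1β arrays and 2 wild-type arrays, and its change of -0.30 (adjusted p = 0.563) came with wild-type replicate 2 at 6.74 and every other array at or below 5.90.

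Fosl1, Fosl2 and Jund had no probe under these symbols. A probe under Jund1, an older symbol of Jund that the choice of members did not cover, differed by -0.14 (adjusted p = 0.722). Maff, a small MAF protein gene, was above background on 0 iPGC-1β arrays and on 0 or 3 wild-type arrays with its 2 probes. Among the IER genes, named for immediate early response, Ier3 lay between 7.70 and 8.33 in iPGC-1β and between 7.74 and 8.58 in wild-type (change -0.17, adjusted p = 0.582). Ier2 was above background on 0 arrays, and Ier5 on 0 iPGC-1β arrays and 3 wild-type arrays, so neither was tested.

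Of the matricellular and GTPase group, Ctgf and Rhob were lower. Ctgf encodes connective tissue growth factor, a secreted protein and a target of YAP and TEAD factors, and had 7.53, 8.55, 7.49, 7.86 and 7.91 on iPGC-1β arrays, against 9.00, 9.54, 9.25, 9.23 and 7.62 on wild-type arrays. Wild-type replicate 5 lay apart from the other wild-type arrays and within the iPGC-1β range, while the other 4 lay above it. The change was -1.06 ± 0.32 (SE, adjusted p = 0.0394). Without wild-type replicate 5 it was -1.39 (adjusted p = 0.000906), whereas omitting wild-type replicate 1, 2, 3 or 4 or iPGC-1β replicate 1, 3, 4 or 5 ended the call (adjusted p of 0.0649 to 0.0968). Rhob, an endosomal small GTPase induced by growth factors and genotoxic stress, had 8.75, 8.53, 8.52, 9.03 and 8.69 on iPGC-1β arrays, against 9.26, 10.15, 9.64, 9.04 and 9.03 on wild-type arrays. The groups did not overlap, but iPGC-1β replicate 4 was nearly level with wild-type replicates 4 and 5. The change was -0.72 ± 0.21 (SE, adjusted p = 0.0324), which missed the threshold on omission of wild-type replicate 2 or 3 or of iPGC-1β replicate 1, 2, 3 or 5 (adjusted p of 0.0519 to 0.0761). Cyr61, the relative of Ctgf, was dim and differed by -0.12 (adjusted p = 0.637).

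Of 18 listed genes of the YAP and TEAD pathway, 8 were tested and 1 was called lower (12.5%, against 7.41% of all tested genes). Yap1, the coactivator itself, was lower, at 7.07 ± 0.12 in iPGC-1β and 7.87 ± 0.26 in wild-type (change -0.80, adjusted p = 0.00224). Its groups did not overlap, and the call stood in all 10 fits that left out an array. Markers of smooth muscle, a cell type that expresses Ctgf, averaged 10.03 to 10.93 on iPGC-1β arrays and 10.11 to 10.56 on wild-type arrays over 8 tested genes, and fibroblast markers averaged 7.30 to 8.04 on iPGC-1β arrays and 7.44 to 7.93 on wild-type arrays over 6 tested genes. None of these stromal markers was called by limma, both ranges overlapped between genotypes, and their part in the Ctgf value was not tested.

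Zfp36l1, which binds AU-rich elements and recruits the deadenylation machinery, was the called member of the mRNA decay group. It had 11.11, 11.49, 11.20, 10.93 and 11.01 on iPGC-1β arrays, against 11.48, 11.92, 11.49, 11.76 and 11.42 on wild-type arrays. iPGC-1β replicate 2 lay among the lower wild-type arrays, and the other 4 lay below them. The change of -0.47 ± 0.15 (SE, adjusted p = 0.0477) was the smallest of the 7 called, and omitting wild-type replicate 1, 2, 3 or 4 or iPGC-1β replicate 1, 3, 4 or 5 ended the call (adjusted p of 0.0662 to 0.116). In the fit of all probes its other kept probe was called (change -0.58, adjusted p = 0.0330) and this probe was not (adjusted p = 0.0521). Btg1, an antiproliferative protein gene of lymphocytes and other resting cells, had 11.28, 11.55, 11.26, 11.45 and 11.00 on iPGC-1β arrays, against 11.78, 11.89, 11.62, 11.57 and 11.55 on wild-type arrays. The groups only just did not overlap, and the change of -0.37 ± 0.14 (SE) was not called (adjusted p = 0.0796), except without iPGC-1β replicate 2 (adjusted p = 0.0476). The other kept Btg1 probe differed by -0.29 in the fit of all probes (adjusted p = 0.155). Zfp36, or tristetraprolin, lay between 10.27 and 10.97 in iPGC-1β and between 10.42 and 11.61 in wild-type (change -0.22, adjusted p = 0.558). Btg2, a p53 target, was dim and differed by -0.19 (adjusted p = 0.640). Of 16 listed deadenylation genes 9 were tested, and 1 was lower (11.1%, against 7.41% of all tested genes). It was the deadenylase subunit gene Cnot6l (change -0.58, adjusted p = 0.00582).

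Neither DUSP gene and no GADD45 gene was called by limma, nor had any an unadjusted p under 0.05. Dusp1, a phosphatase of p38 and JNK, had 8.57, 9.08, 8.89, 9.13 and 9.00 on iPGC-1β arrays, against 8.83, 10.69, 9.27, 9.01 and 7.87 on wild-type arrays. The iPGC-1β arrays lay close together between the extremes of wild-type replicates 5 and 2, and the change was -0.20 (adjusted p = 0.758). Dusp2, a nuclear phosphatase mostly of immune cells, was dim, and its 2 kept probes gave changes of -0.14 and 0.17. The GADD45 proteins are stress sensors that bind and activate an upstream kinase of p38 and JNK. Gadd45a lay between 9.12 and 10.61 in iPGC-1β and between 9.59 and 10.70 in wild-type (change -0.06), Gadd45g between 8.68 and 9.82 and between 8.69 and 10.51 (change -0.39), and Gadd45b between 5.15 and 6.07 and between 4.82 and 6.03 (change 0.31). Their adjusted p-values were 0.910, 0.403 and 0.438. In the fit of all probes, the other kept probes gave 0.01 for Gadd45a, opposite in sign, and -0.50 for Gadd45g (adjusted p of 0.984 and 0.345).

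Genes that lie upstream of the members or are induced along with them were also read from lists. Of 47 listed other immediate and delayed early genes 28 were tested, 5 were lower (17.9%, against 7.41% of all tested genes) and limma called 0 higher, with a median change of -0.33. Dusp6, the ERK phosphatase, was lower by 1.54 on the log2 scale (change -1.54, adjusted p = 0.00118), and Areg, the EGF receptor ligand amphiregulin, had a change of -1.62 (adjusted p = 0.00881). Phlda1 changed by -1.82 (adjusted p = 0.0231), Id1, an inhibitor of bHLH factors, by -0.97 (adjusted p = 0.0145) and Srf by -0.72 (adjusted p = 0.0362). The Dusp6, Areg and Id1 calls stood in all 10 fits that left out an array. That of Phlda1 was lost without wild-type replicate 3 or iPGC-1β replicate 1 or 3 (adjusted p up to 0.0598), and that of Srf without wild-type replicate 1, 2, 3 or 4 or iPGC-1β replicate 1, 3 or 4 (up to 0.0848). Srf encodes serum response factor, which binds the CArG box. On its list with the ternary complex and CREB factors, 6 of 13 genes were tested. Of these, 2 were lower (33.3%, against 7.41% of all tested genes), Srf itself and Ep300, a histone acetyltransferase (change -0.57, adjusted p = 0.0127).

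Of 27 tested genes of the MAP kinase cascade, 3 were lower (11.1%) and 2 were higher (7.41%), shares near those of all tested genes (7.41% lower and 9.88% higher), and the median change was -0.08. Egfr, the receptor of amphiregulin, and Nras, a RAS GTPase, were lower (changes of -0.60 and -0.61, adjusted p of 0.0108 and 0.0110). Map2k4, a kinase upstream of JNK, was lower as well (change -0.38, adjusted p = 0.0475), a call lost in each of the 10 fits that left out an array (adjusted p of 0.0525 to 0.115). Araf, a RAF kinase, and Mapk8, which encodes JNK1, were higher (changes of 0.58 and 0.73, adjusted p of 0.0107 and 0.0128). The calls of Egfr, Nras, Araf and Mapk8 stood in all 10 such fits. Among 9 tested genes of the glucocorticoid response 2 were lower (22.2%, against 7.41% of all tested genes). The median change of the list was -0.76, against -0.05 over all genes. Hsd11b2, which inactivates corticosterone, changed by -0.77 (adjusted p = 0.0128). Fkbp5, a chaperone induced by glucocorticoids, changed by -1.30 (adjusted p = 0.0404), and its call was lost without wild-type replicate 1, 2, 3 or 4 or iPGC-1β replicate 1, 3, 4 or 5 (adjusted p of 0.0565 to 0.0971).

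The members also differed in spread between arrays of the same genotype. The SD was larger on wild-type arrays for 23 of 31 members (74.2%), against 40.4% of all tested genes, and it was over 2 times as large for 9 members (29%), against 7.58% of genes. The median SD of the members was 0.304 on iPGC-1β arrays and 0.464 on wild-type arrays, while over all genes it was 0.278 on iPGC-1β arrays and 0.246 on wild-type arrays. No test of the difference in spread was made. The 5 members with the largest SD within a genotype were Egr1 (0.63 in iPGC-1β, 1.61 in wild-type), Fos (0.76 and 1.10), Dusp1 (0.22 and 1.02), Egr2 (0.32 and 0.98) and Atf3 (0.64 and 0.83), in each case with the larger value in wild-type. Egr1 spanned 1.5 on the iPGC-1β arrays and 4.12 on the wild-type arrays. Its wild-type SD exceeded that of 99.8% of 914 tested genes within 0.5 of its mean level, and its iPGC-1β SD that of 96.2%. Dusp1 had the largest ratio of the wild-type to the iPGC-1β SD among these 5, of 4.59, its SD lying above 44.8% of genes of similar level on iPGC-1β arrays and above 99.2% on wild-type arrays. Klf13 and Klf9 had small SDs in iPGC-1β, of 0.089 and 0.112, against 0.37 and 0.36 in wild-type. With each array left out in turn, the SD was larger in wild-type for 20 to 25 members, the lowest count being without wild-type replicate 2. Without that array the count of members with over 2 times the SD in wild-type was 4 and the members' median wild-type SD was 0.373.

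**Figure D3:**
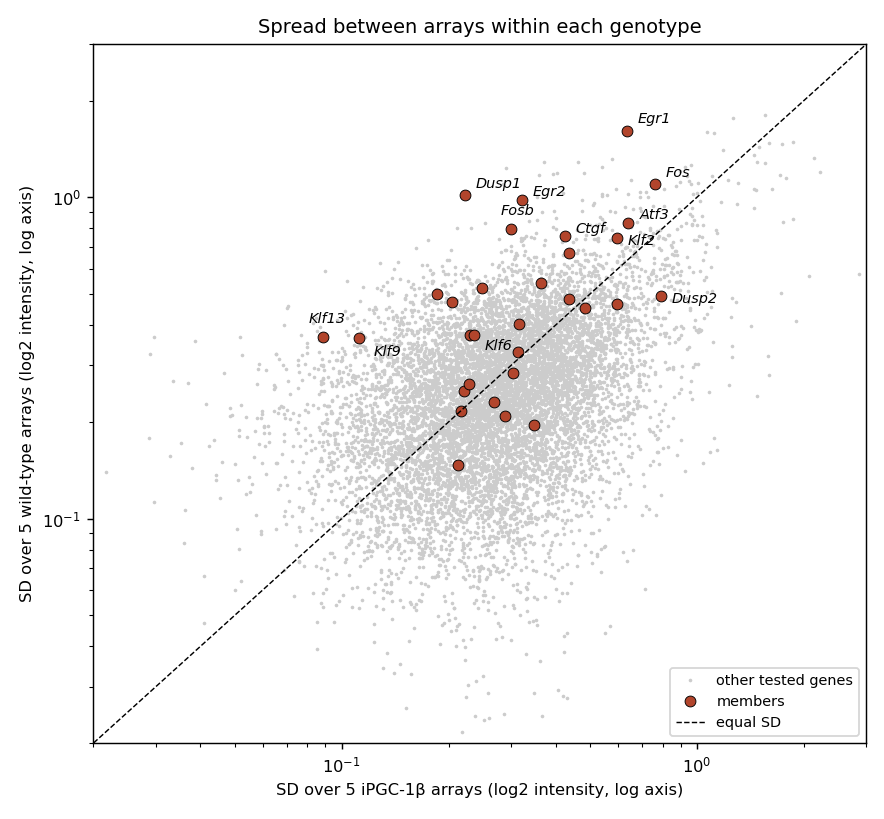
SD of log2 intensity over 5 iPGC-1β arrays (x axis) and over 5 wild-type arrays (y axis), both on log axes, for 31 members (red) and the other tested genes (grey); the dashed line marks equal SDs. The 23 members above the line have the larger SD in wild-type, Egr1, Fos and Dusp1 with over 1.

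Much of the wild-type spread lay between particular arrays. Wild-type replicate 2 was the highest of all 10 arrays for 19 of 31 members (61.3%), against 10.4% of all genes. Its members lay a median of 0.45 above the wild-type mean, those of replicate 3 lay 0.17 above it, and those of replicates 1 and 5 lay 0.33 and 0.36 below it (medians of -0.33 and -0.36). Wild-type replicate 5 was the lowest wild-type array for 17 members, against 30.6% of all genes. On iPGC-1β arrays the members' median deviation from the wild-type mean ran from -0.56 on replicate 1 to -0.23 on replicate 4, so that the medians of wild-type replicates 1 and 5 lay inside the iPGC-1β range. Over all genes the medians of the wild-type arrays around their own mean stayed within 0.01, which quantile normalization largely fixes in advance. Other immediate and delayed early genes followed the same order among wild-type arrays at its ends, averaging 8.98 on replicate 2 and 8.00 on replicate 5, and 7.77 to 8.25 on iPGC-1β arrays. A low wild-type replicate 5 was not particular to early genes. Genes of the glucocorticoid response, some of them on both lists, averaged 7.83 on wild-type replicate 5 and 8.82 on replicate 1. They averaged 9.50 on replicate 2 and 9.52 on replicate 3, so replicate 2 did not stand out on this list. Without wild-type replicate 2, 23 of 30 tested members had a negative change, against 55.3% of all genes. The median change was -0.36 for the members and -0.05 over all genes. In that fit 4 of 30 members were called lower, against 4.8% of all genes.

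**Figure D4:**
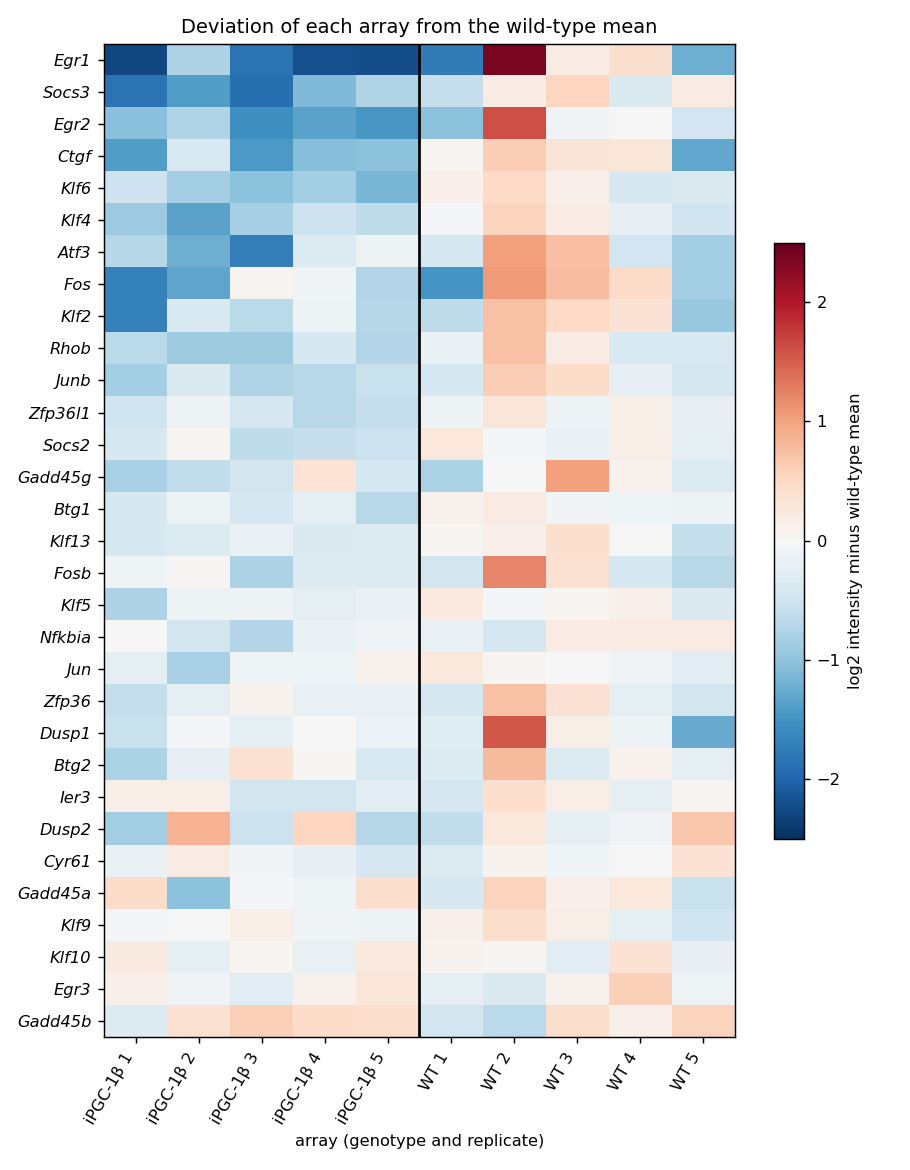
Log2 intensity minus the wild-type mean (colour scale) of the 31 tested members (rows, ordered by change) on each array (columns, iPGC-1β left of wild-type, WT). The column of wild-type replicate 2 is the reddest, with Egr1 at 2.38 above the wild-type mean, while wild-type replicates 1 and 5 resemble iPGC-1β arrays for Egr1 and Fos.

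Cell type markers were read beside these values. Enterocyte markers averaged 11.98 to 12.61 on iPGC-1β arrays and 12.47 to 13.26 on wild-type arrays over 8 tested genes, all of them above background on all 10 arrays, and 3 were lower in iPGC-1β (Mep1b, Anpep and Dpp4). The 3 make up 37.5% of the tested markers, against 7.41% of all tested genes and 22.6% of the members. The median change of the enterocyte markers was -0.61, against -0.32 for the members. Wild-type replicate 5 was the lowest wild-type array for these markers, at 12.47, and replicate 2 stood at 13.10, below replicate 3 at 13.26. Goblet cell markers averaged 10.28 to 10.98 on iPGC-1β arrays and 10.94 to 11.14 on wild-type arrays, with Spdef lower among 5 tested genes (20%). Of the other lists, Sct was lower among 7 enteroendocrine genes (14.3%). Emcn was higher among 6 endothelial genes (16.7%, against 9.88% of all tested genes). Of 7 Paneth, 6 crypt, 4 T cell, 2 B cell, 8 macrophage and 4 erythroid genes, limma called 0. The Mep1b and Anpep calls stood in all 10 fits that left out an array, while those of Dpp4, Spdef, Sct and Emcn stood in 2, 4, 1 and 5 of them. T cell markers averaged 7.83 on wild-type replicate 2, the lowest wild-type value, and 8.91 on replicate 5, the highest. Erythroid markers were highest on wild-type replicate 3, at 8.57. The part of these markers in the members' changes was not tested.

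The calls of the members stood differently across the 20 processing alternatives, which covered background correction, normalization, filters, variance models and arrays left out. Socs3, Klf6 and Klf4 were called in 20 of 20. Rhob was called in 13, Ctgf in 10 and Zfp36l1 in 10 of 20, and Egr2 in 8 of 19 that gave a value. Of the members not called, Egr1 and Junb were called in 6 alternatives each, Btg1 in 5, Klf13 in 3 and Socs2 in 2. None of these 12 members changed sign under any alternative.

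**Figure D5:**
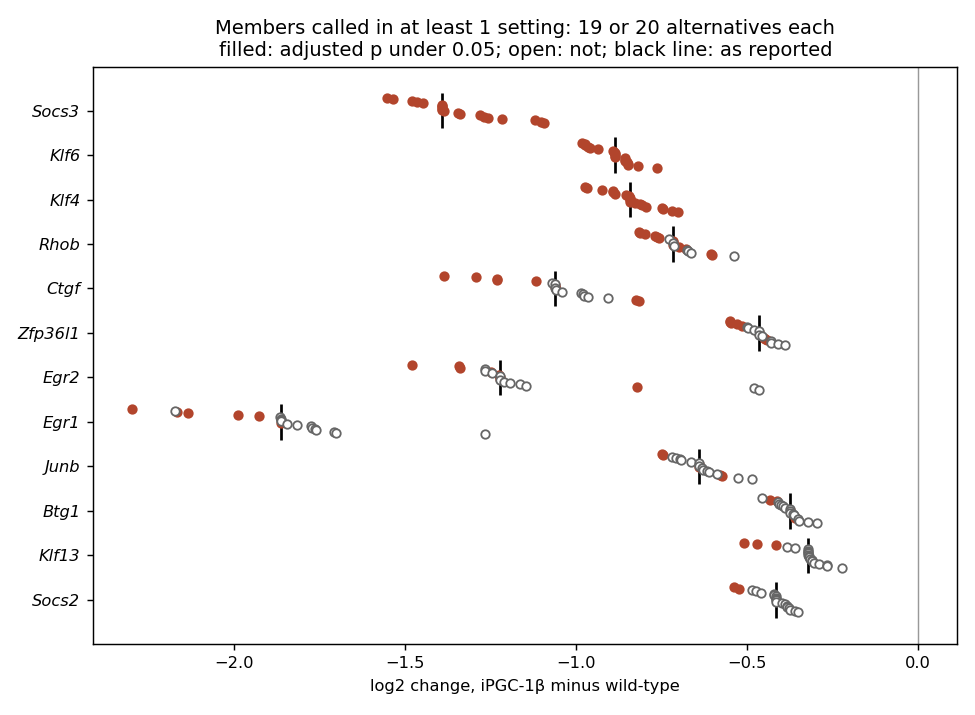
Log2 change (x axis, iPGC-1β minus wild-type) of the 12 members called in at least 1 setting, under 19 or 20 alternatives each; filled points passed an adjusted p under 0.05, open points did not, and black lines mark the reported change. All points of Socs3, Klf6 and Klf4 are filled, and every point lies below 0.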

How the data were processed

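Ileum total RNA of 10 mice was isolated with Qiazol and run on biotin-based Illumina arrays, per the labels' protocols; GenomeStudio appears in the submitters' processing notes. Per the file headers, the deposited table holds an average signal (a linear intensity) and a detection p-value for every probe and array. A second deposited table holds intensity values processed by the authors (median 141.7 on every array) in a way the labels do not state. All sample columns were used (0 left out), and 0 pairs of arrays were identical.

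Intensities were background-corrected with normexp from the detection p-values (offset 16), then quantile-normalized and taken to log2 (neqc, limma 3.58.1, R 4.3.3). Probes with detection p under 0.05 on at least 5 of 10 arrays were kept (12349), and the kept probe with the highest mean stood for each symbol (9365 genes). Groups were compared with lmFit and eBayes, without covariates, and the procedure was tested on simulated data. Arrays have no sequencing depth; their number limits the precision. The labels name no litter, sex or slide, so these could not be modelled. The p-values weigh each genotype difference against the spread between these samples only, with each variance drawn toward that of all genes. Replicate numbers, given in accession order, pair nothing.

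The members and gene lists were chosen with earlier results of these data known. Named are all members, every kept probe of a member with several, called genes of each pathway list (up to 6, or the lowest p-values where none was called), the 5 members of largest spread and Ppargc1b. Of 40 members 38 symbols are current in RefSeq and 2 (Cyr61 and Ctgf) were matched by synonym; 32 had an upstream window. Alternatives were no background correction, median centring, cyclic loess, the values processed by the authors, no filter on dim probes, a filter at detection p under 0.01 on every one of 10 arrays, a fit of all kept probes, robust fitting with a variance trend, array weights, single arrays left out, and leaving out both wild-type replicate 5 and iPGC-1β replicate 3. Counts were also taken at an adjusted p under 0.10 and at 1.5-fold or more.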

Additional observations from a re-analysis of the deposited data

Results flagged for a closer look

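Among 62 sets of 5 arrays (31 members in each genotype), a lone array stood far from the other 4 in 5 sets; chance alone flags about 1 in 20. Egr1 on iPGC-1β replicate 2 was at 10.20, with the other iPGC-1β arrays at 8.70 to 9.13. Klf13 on iPGC-1β replicate 3 was at 8.79, with the others at 8.57 to 8.63. Klf5 and Gadd45b were low on iPGC-1β replicate 1, at 12.72 against 13.24 to 13.35 for Klf5 and at 5.15 against 5.87 to 6.07 for Gadd45b on the other iPGC-1β arrays. Ctgf on wild-type replicate 5 was at 7.62, with the other wild-type arrays at 9.00 to 9.54.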

How the results depend on the processing

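The 7 members called lower became 3 with no filter on dim probes (36 members tested), 11 with array weights and 11 at an adjusted p under 0.10, and 3 to 10 with each array left out. Genes lower numbered 694 as reported, 1105 with array weights, 1077 at an adjusted p under 0.10, and 425 to 791 with each array left out, and genes higher 747 to 947. Over all settings 0 members were called higher. Of the alternative values of the 7 called members 101 kept the call, 38 lost it and 0 reversed; of those of the other members 410 stayed uncalled with the same sign, 22 passed the threshold and 28 changed sign, all uncalled. These were, with arrays left out, Fosb (-0.47 to 0.0065), Egr3 (-0.063 to 0.11), Klf9 (-0.14 to 0.093), Klf10 (-0.050 to 0.11), Btg2 (-0.34 to 0.0045), Dusp1 (-0.52 to 0.19), Dusp2 (-0.39 to 0.43) and Gadd45a (-0.20 to 0.18). The sign also changed for Klf9 under cyclic loess (0.0061), for Klf10 under median centring (-0.00047), array weights (-0.047) and without both wild-type replicate 5 and iPGC-1β replicate 3 (-0.039), and for Dusp2 under array weights (0.085) and without both (0.47). The probe standing for a gene was chosen anew in each fit. The 2 kept Dusp2 probes had near-equal means (5.54 and 5.52), so the Dusp2 values with arrays left out do not all come from the same probe. The cause of the other sign changes was not tested. The count of members with the larger SD in wild-type, with each array left out, was chosen after seeing the data. No paired analysis was possible because the labels number no replicates across groups. For the 8 members not above background on all 10 arrays, changes shrink without background correction, Egr2 to -0.47. Changes of brighter members shrank too, such as those of Klf2 (-0.72 to -0.37) and Socs3 (-1.39 to -1.09), while those of Klf9 and Dusp1 hardly moved.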
